A study of Mus musculus with 6 samples.

Results

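The genes described here encode the enzymes that remove superoxide, peroxides and reactive metabolites, the enzymes that make and recycle glutathione, and the regulator pair Nfe2l2 and Keap1. They were taken as a list of 34 gene symbols, and a gene counted as measured where at least 1 probe set of the array was annotated with its symbol and no other. By that rule 31 of the 34 genes were measured, by 63 of the 45037 probe sets tested, among 18193 genes with such a probe set. Prdx1 was not measured because each of its 5 probe sets also carries the symbol Gm21399, and no probe set was listed for Prdx5 or Prdx6. Expression was measured on 6 Affymetrix mouse arrays, 1 per mouse, in organoids of the mammary epithelium, which are pieces of duct and alveolus freed by digestion of the gland. All 6 mice were 8 weeks old, of a mixed 129/J and C57BL/6 background, and carried 2 floxed Wwox alleles (WWOX flox/flox). The 3 WT mice (WT1, WT2 and WT3) had no Cre transgene (BK5-cre -), and the 3 KO mice (KO5, KO6 and KO7) carried BK5-cre, in which the bovine keratin 5 promoter drives Cre in epithelial precursors. No array of Cre with intact Wwox was analysed here, so an effect of Cre itself and the loss of Wwox cannot be told apart. The 3 arrays of a group are separate mice, and the question is which of these genes differed between WT and KO epithelium.

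Glutathione is a tripeptide built in succession by glutamate-cysteine ligase, which has a catalytic subunit (Gclc) and a modifier subunit (Gclm), and by glutathione synthetase (Gss). It reduces peroxides through the glutathione peroxidases, is joined to electrophiles by the glutathione transferases, and is regenerated from its oxidised form by glutathione reductase (Gsr) at the cost of NADPH. The thioredoxin system works in parallel and serves the peroxiredoxins. Many of these genes are targets of NRF2, the transcription factor encoded by Nfe2l2, which is held in the cytoplasm and marked for degradation by KEAP1 until KEAP1 is modified by oxidants or electrophiles. NRF2 then pairs with a small MAF protein and binds the antioxidant response element in promoters and enhancers of its targets.

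Promoters of the list were searched for that element. RefSeq windows on GRCm38.p6, from 250 bases before to 50 bases after a start site, were at hand for 28 of the 34 genes, as 35 windows. Gclc, Gsr, Gsta4, Hmox1, Prdx6 and Sod3 had none. The core of the element, TGACNNNGC on either strand, occurred in 8 of the 35 windows (22.9%), those of Gclm, Gstm5, Mgst1, Nfe2l2, Prdx1, Sod1, Srxn1 and Txnrd1, beside 12.4% of all 32851 windows. The form bound by NRF2 with small MAF proteins, TGANTCAGC, which contains the AP-1 site TGANTCA and can overlap the core, occurred in 3 windows (Gstp1, Prdx1 and Srxn1), beside 1.19% of all windows, and overlapped the core in 1 of them, that of Prdx1. The 4 windows below are shown because they belong to genes whose levels differed between WT and KO at an unadjusted p under 0.05, in both directions, and hold a match. Letters in capitals are the matches, read 5′ to 3′ along the strand of the gene, and the lower case letters are the rest of the window.
Srxn1, chr2:152105274-152105573, plus strand: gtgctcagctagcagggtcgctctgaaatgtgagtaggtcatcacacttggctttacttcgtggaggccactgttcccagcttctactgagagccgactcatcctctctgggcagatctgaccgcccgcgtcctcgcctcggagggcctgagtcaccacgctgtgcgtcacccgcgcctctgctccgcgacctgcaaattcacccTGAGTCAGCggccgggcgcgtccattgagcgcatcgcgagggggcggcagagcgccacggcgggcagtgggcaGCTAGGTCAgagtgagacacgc
Gclm, chr3:122245307-122245606, plus strand: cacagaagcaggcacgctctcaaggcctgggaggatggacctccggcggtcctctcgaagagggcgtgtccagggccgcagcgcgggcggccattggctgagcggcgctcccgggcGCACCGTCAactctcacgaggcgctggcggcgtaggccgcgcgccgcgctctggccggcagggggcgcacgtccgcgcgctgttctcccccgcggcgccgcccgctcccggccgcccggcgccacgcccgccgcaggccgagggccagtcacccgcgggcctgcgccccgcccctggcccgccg
Sod1, chr16:90220512-90220811, plus strand: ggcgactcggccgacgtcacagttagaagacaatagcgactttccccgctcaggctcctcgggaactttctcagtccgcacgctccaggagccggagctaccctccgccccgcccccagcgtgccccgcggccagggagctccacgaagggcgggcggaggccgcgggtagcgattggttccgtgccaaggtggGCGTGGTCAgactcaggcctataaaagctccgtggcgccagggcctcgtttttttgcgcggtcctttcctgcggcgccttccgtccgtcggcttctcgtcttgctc
Mgst1, chr6:138140277-138140576, plus strand: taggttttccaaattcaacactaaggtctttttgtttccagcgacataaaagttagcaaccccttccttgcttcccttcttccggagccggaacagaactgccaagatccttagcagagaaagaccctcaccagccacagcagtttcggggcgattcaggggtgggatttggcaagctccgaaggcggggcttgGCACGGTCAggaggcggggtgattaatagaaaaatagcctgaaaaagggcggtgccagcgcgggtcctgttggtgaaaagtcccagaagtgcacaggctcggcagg
The core lies at -134 in Gclm, at -56 in Sod1, at -56 in Mgst1 and at 29 in Srxn1, counted from the start site to the first matched base, and Srxn1 holds the longer form at -45 as well. Gclm and Srxn1 had higher means in KO, whereas Sod1 and Mgst1 had lower means, so windows with a match belonged to genes of both directions. A match is a run of letters and was not tested for binding.

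The deposited values are log2 RMA values, and a change is the KO mean minus the WT mean on that scale. Each gene is given by its brightest probe set, the one with the highest mean over the 6 arrays, unless another is named. A gene was called changed where limma gave an unadjusted p under 0.01 and the groups differed 2-fold or more. The adjusted p beside it is that of Benjamini and Hochberg for the 45037 probe sets together. By this rule Hmox1 rose in KO and 0 of the 31 genes fell, while of all 18193 genes 0.517% were called higher, 0.462% lower and 0.978% in either direction. At an unadjusted p under 0.05, 6 of the 31 were higher (Gclc, Gclm, Gsr, Hmox1, Srxn1 and Gpx2) and 3 were lower (Sod1, Gsta4 and Mgst1), against 6.17% of all genes higher and 13% lower. None of the 31 had an adjusted p under 0.05 on its brightest probe set in limma, as for all but 0.137% of genes, and 3 of the 31 had one under 0.1, as had 703 of all 18193 genes. The arrays of KO lay wholly above those of WT for 4 genes (7.2% of all genes) and wholly below for 3 (16.1% of all genes), and overlapped for 24. The changes had no common direction, with 17 genes above 0 and 14 below, a median of 0.05 on the log2 scale and -0.06 over all genes. Their median size without regard to sign was 0.30 on the log2 scale and that of all genes was 0.18. In a bulk sample, fewer cells of a type and less RNA per cell cannot be told apart.

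**Figure D1:**
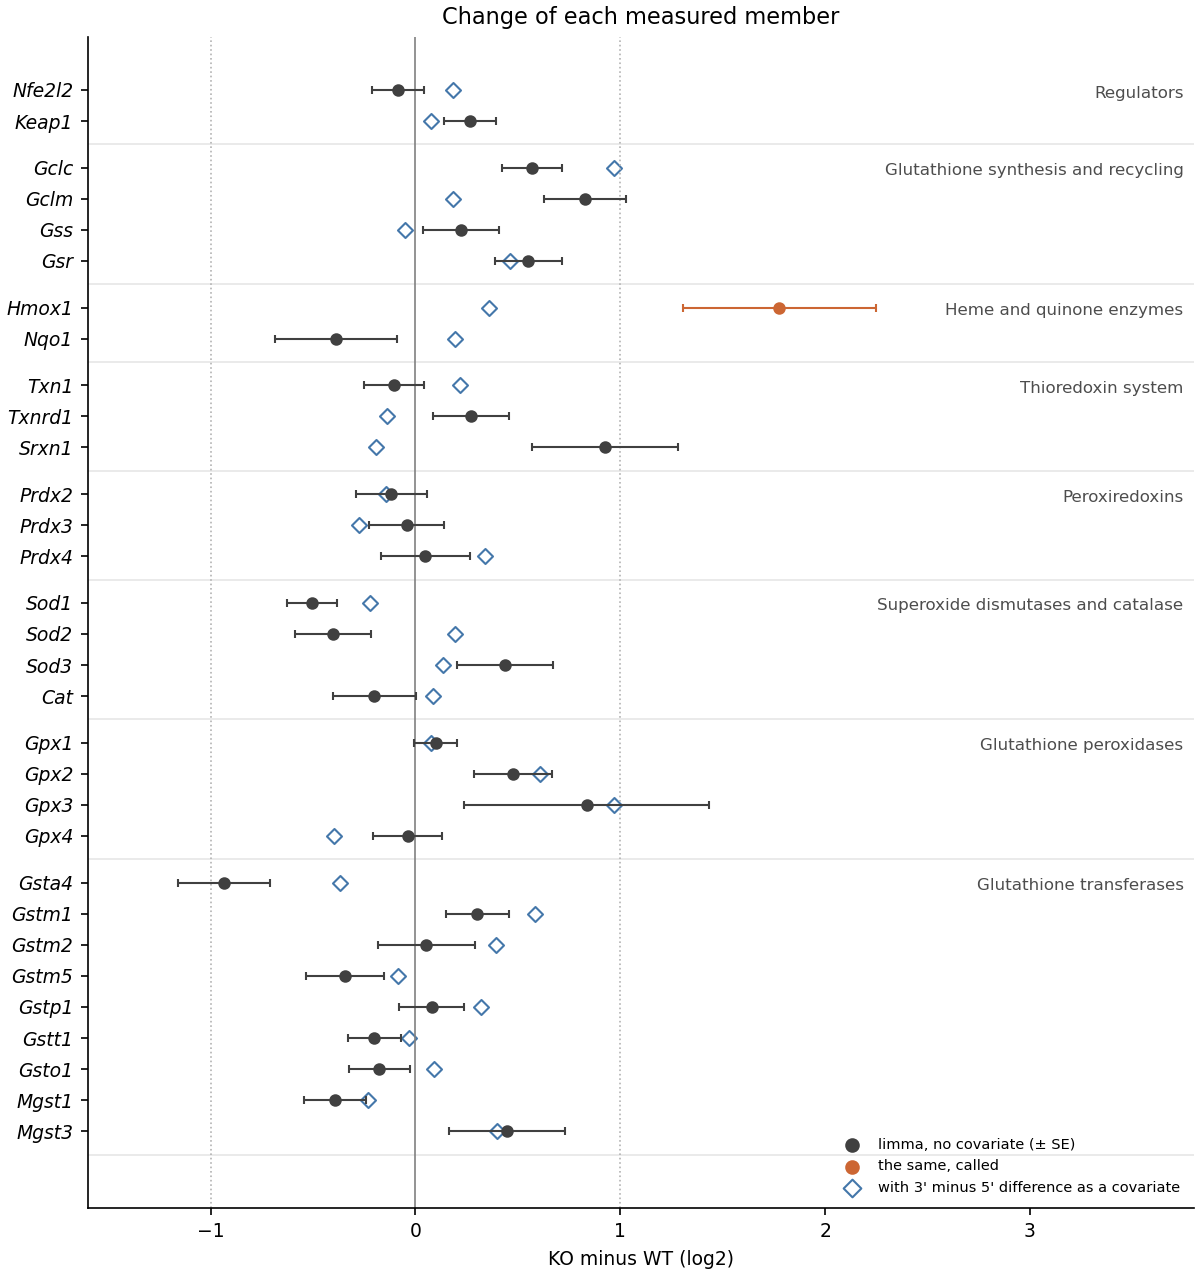
Change of each of the 31 measured genes (x axis, KO minus WT, log2; y axis, genes grouped by role). Filled points are the limma estimates with the SE, orange for the called gene, and open diamonds are the estimates with the 3' minus 5' difference of the array as a covariate; Hmox1 stands farthest to the right at 1.78 and its diamond at 0.36.

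The labelled deletion and the make-up of the samples were checked first. Wwox itself (probe set 1416334_at) averaged 7.71 ± 0.07 among WT arrays and 6.02 ± 0.19 among KO arrays (log2, SD, n = 3 each), a change of -1.69 on the log2 scale (limma, adjusted p = 0.0228). Luminal and basal epithelial markers were abundant in both groups, with summed levels of 16.53 to 16.90 and 14.32 to 14.64 (log2) in WT and of 16.76 to 16.90 and 14.34 to 14.69 (log2) in KO. All 12 endothelial markers had higher means in KO (summed level 12.82 to 13.33 in WT and 13.50 to 13.94 in KO, log2). Of these, 3 were called higher, Cldn5, Tie1 and Flt1. Of 12 fibroblast markers, 8 had higher and 4 had lower means in KO, and Col1a1 was called higher. Their summed level was 15.10 to 15.26 in WT and 15.29 to 15.78 in KO (log2). All 15 macrophage and dendritic cell markers had lower means in KO (12.52 to 14.00 in WT and 12.47 to 13.35 in KO, log2; 2 called lower, Tyrobp and C1qb), as had all 12 lymphocyte markers (9.67 to 12.64 and 9.42 to 11.07, log2; 0 called). Adipocyte markers stood at 14.19 to 14.60 in WT and 14.50 to 14.63 in KO (log2), and 5 of 6 red blood cell markers were dim. The 3' minus 5' differences of control transcripts also differed between the groups. That of the Gapdh and β-actin control probe sets, which grows as RNA is degraded or incompletely copied, averaged 0.96 in WT1, 2.13 in WT2 and 1.80 in WT3 and 0.54 to 0.60 in the KO arrays (log2), so that WT1 lay nearest to KO. The difference of the transferrin receptor was 1.95 to 2.09 in WT and 1.60 to 1.81 in KO (log2), while that of pyruvate carboxylase overlapped and leaned the other way, at 1.77, 1.91 and 2.995 in WT and 3.21, 2.83 and 2.45 in KO (log2). The covariate used below is the mean of Gapdh and β-actin. It was higher on every WT array than on every KO array, so it largely goes together with genotype. A fit with this covariate estimates the change of KO less precisely. A change that shrinks or turns in that fit cannot be assigned to RNA quality or to genotype. The part of these marker and 3' minus 5' differences in the results on single genes was not tested beyond the values given beside them.

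Hmox1 encodes heme oxygenase-1, the inducible enzyme that breaks heme down to biliverdin, iron and carbon monoxide. Its level was 12.02 in WT1, 10.77 in WT2 and 9.94 in WT3, and 12.57 in KO5, 12.99 in KO6 and 12.50 in KO7 (log2 RMA). Every KO array lay above every WT array, but the WT mice were themselves spread over a wide range, with WT1 closer to the KO arrays than to WT3. It averaged 10.91 ± 1.05 among WT arrays and 12.69 ± 0.27 among KO arrays (log2, SD, n = 3 each), a rise of 1.78 on the log2 scale (SE 0.47, 3.43-fold; limma, unadjusted p = 0.00626, adjusted p = 0.111). Macrophages are rich in this enzyme. The summed level of the 15 macrophage and dendritic cell markers was 14.00 in WT1, 13.81 in WT2 and 12.52 in WT3 (log2). In KO5, KO6 and KO7 it was 12.47, 13.35 and 12.67 (log2). The part of cell make-up in the level of Hmox1 was not tested. The call depended on single arrays. With the array removed, the change was 1.71 on the log2 scale without WT2, 1.84 without KO5, 1.62 without KO6 and 1.87 without KO7, and none of these was called. With the 3' minus 5' difference as a covariate it was 0.36 (limma, unadjusted p = 0.593) and against WT1 alone 0.66, again without a call. Nqo1, the quinone reductase often read as an NRF2 target, did not follow Hmox1: its probe set was at 6.84, 7.29 and 7.83 in WT1, WT2 and WT3 and at 7.34, 6.99 and 6.46 in KO5, KO6 and KO7 (log2 RMA), a change of -0.39 on the log2 scale (SE 0.30, unadjusted p = 0.230) with overlapping groups.

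**Figure D2:**
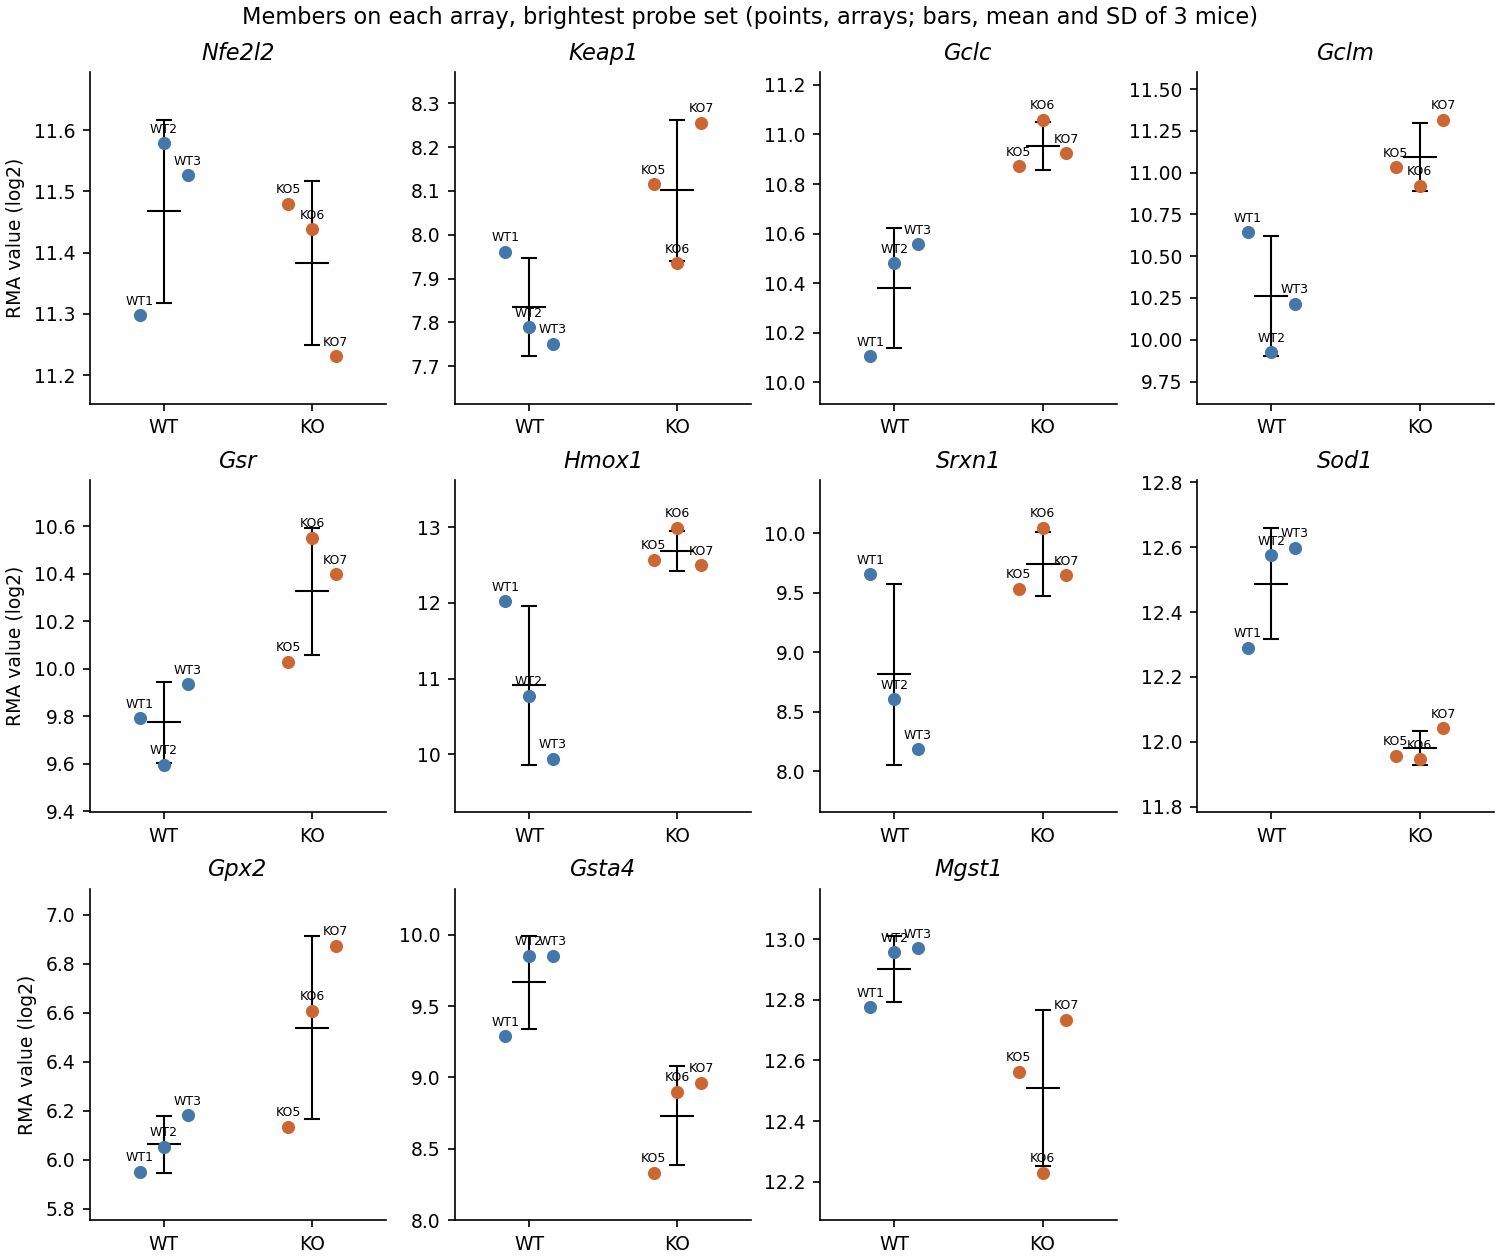
Level (y axis, log2 RMA value of the brightest probe set) on each of the 3 WT and 3 KO arrays (x axis) for the genes with an unadjusted p under 0.05 and for Nfe2l2 and Keap1. Points are arrays and bars are the mean and SD of 3 mice; y axes differ and do not start at 0. For Hmox1 and Srxn1 the WT1 point lies near the KO points, at 12.02 and 9.66.

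The 4 genes of glutathione synthesis and recycling all had higher means in KO, 3 of them with an unadjusted p under 0.05, though none was called on its brightest probe set. At that limit 6.17% of all genes were higher. Gclc, the catalytic subunit of glutamate-cysteine ligase and the rate-limiting step of the pathway, was at 10.10, 10.48 and 10.56 in WT1, WT2 and WT3 and at 10.87, 11.06 and 10.92 in KO5, KO6 and KO7 on probe set 1455959_s_at (log2 RMA). The groups did not overlap and the change was 0.57 on the log2 scale (SE 0.15; limma, unadjusted p = 0.00536, adjusted p = 0.105). On its other probe set, 1424296_at, Gclc rose far more, and this was the only one of the 63 probe sets with an adjusted p under 0.05, which 0.222% of all probe sets had. Its levels were 9.36 in WT1, 9.10 in WT2, 9.21 in WT3, 10.94 in KO5, 10.87 in KO6 and 10.96 in KO7 (log2 RMA). The mice of a group differed little, with means of 9.22 ± 0.13 for WT and 10.92 ± 0.05 for KO (log2, SD, n = 3 each), and the rise was 1.70 on the log2 scale (SE 0.11, 3.25-fold; limma, unadjusted p = 7.79e-07, adjusted p = 0.0151). WT1 lay beside WT2 and WT3 here and apart from the KO arrays. The probe set was called in every setting in which it was fitted, with a change between 1.64 and 1.77 on the log2 scale when single arrays were left out, 1.57 against WT1 alone and 1.47 with the 3' minus 5' difference as a covariate. The probe set was picked for these refits because it was called in the fit to all 6 arrays. Refits of the same arrays cannot test whether the change holds. A call uses the unadjusted p. The adjusted p of limma stayed under 0.05 without WT1 (0.00262) or WT3 (0.0276) but was 0.0674 without WT2, 0.0848 without KO5, 0.0569 without KO6, 0.0594 without KO7, 0.0686 with the replicate number as a block, 0.103 against WT1 alone and 0.480 with the covariate. The brightest probe set of Gclc also kept its direction, at 0.97 with the covariate (limma, unadjusted p = 0.00337, adjusted p = 0.80) and 0.85 against WT1 alone. The sizes on the 2 probe sets, 1.49-fold and 3.25-fold, differ, and which transcripts each of them reads was not examined. A probe set whose name ends in _s_at can match more than 1 transcript.

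Gclm, the modifier subunit that raises the activity of the ligase, was at 10.64, 9.92 and 10.22 in WT1, WT2 and WT3 and at 11.03, 10.92 and 11.32 in KO5, KO6 and KO7 (log2 RMA). All KO arrays were higher, by 0.83 on the log2 scale on average (SE 0.20; limma, unadjusted p = 0.00388, adjusted p = 0.0943), short of the 2-fold limit. Its other probe set, 1439050_at, was dimmer (8.44 to 8.79, log2 RMA) and gave -0.08 on the log2 scale with overlapping groups, so the higher level of Gclm rests on 1 of 2 probe sets. The change of the brighter one was 1.02, and called, without WT1, 0.45 against WT1 alone and 0.18 with the covariate. Gsr, glutathione reductase, was at 9.79, 9.60 and 9.93 in WT and 10.03, 10.55 and 10.40 in KO (log2 RMA, in the order above). The groups did not overlap, and both of its probe sets were higher, by 0.55 on the log2 scale (SE 0.17; limma, unadjusted p = 0.0115, adjusted p = 0.139) and by 0.86 on the log2 scale (SE 0.23; limma, unadjusted p = 0.00642, adjusted p = 0.112). With the covariate these were 0.46 (unadjusted p = 0.196) and 0.17 (unadjusted p = 0.605) on the log2 scale, and without WT1 the second was 1.06 and called. Gss, which adds glycine to complete glutathione, had overlapping groups on both probe sets. The change was 0.22 on the log2 scale on the brighter one (limma, unadjusted p = 0.268) and -0.43 on the dimmer one (limma, unadjusted p = 0.120). Without WT1 these were 0.26 (limma, unadjusted p = 0.270) and -0.70 (limma, unadjusted p = 0.00445), and with the covariate -0.05 and 0.25.

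**Figure D3:**
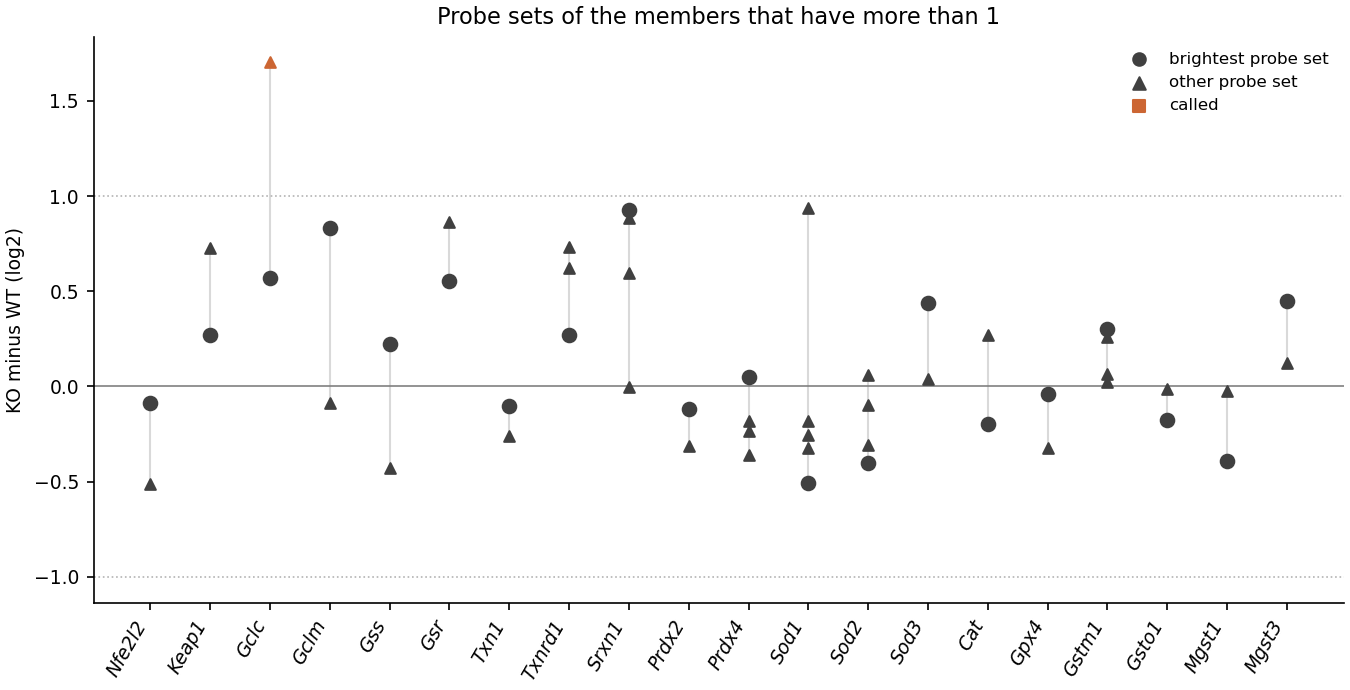
Change (y axis, KO minus WT, log2) on every probe set of the 20 genes that have more than 1 (x axis). Circles are the brightest probe sets and triangles the others; orange marks the call, the Gclc triangle at 1.70. In 7 genes the symbols lie on both sides of 0, with the widest span in Sod1, from -0.51 to 0.94.

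On their brightest probe sets the regulators themselves differed little, while their dimmer probe sets differed more. Nfe2l2 was at 11.30, 11.58 and 11.53 in WT1, WT2 and WT3 and at 11.48, 11.44 and 11.23 in KO5, KO6 and KO7 (log2 RMA), a change of -0.08 on the log2 scale (SE 0.13, 95% interval -0.38 to 0.22, unadjusted p = 0.528). The groups overlapped, and the interval lies within 2-fold in both directions. The dimmer probe set of Nfe2l2 had a lower mean in KO, by -0.51 on the log2 scale (limma, unadjusted p = 0.0277, adjusted p = 0.200). With the covariate both directions turned, to 0.18 (unadjusted p = 0.418) on the brighter and 0.04 (unadjusted p = 0.867) on the dimmer probe set, and against WT1 alone the values were 0.09 and -0.15 (log2). Keap1 was at 7.96, 7.79 and 7.75 in WT and at 8.12, 7.93 and 8.26 in KO (log2 RMA), 0.27 higher on the log2 scale (SE 0.13, unadjusted p = 0.0708), with KO6 below WT1. Its second probe set, which reads between 5.13 and 6.15, did separate the groups, by 0.73 on the log2 scale (limma, unadjusted p = 0.00177, adjusted p = 0.0757), and gave 0.47 with the covariate (unadjusted p = 0.129). Without WT1, Nfe2l2 gave -0.17 (limma, unadjusted p = 0.240) on its brighter and -0.69 (limma, unadjusted p = 0.00288) on its dimmer probe set (log2). In the same fit Keap1 gave 0.33 (limma, unadjusted p = 0.0495) and 0.82 (limma, unadjusted p = 0.00165), in that order. NRF2 activity is set mainly at the level of the protein, which arrays do not measure.

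In the thioredoxin system only Srxn1 reached an unadjusted p under 0.05. It encodes sulfiredoxin, which restores over-oxidised peroxiredoxins, and was at 9.66 in WT1, 8.60 in WT2, 8.18 in WT3, 9.53 in KO5, 10.04 in KO6 and 9.64 in KO7 (log2 RMA, probe set 1426875_s_at). WT1 was as high as the KO arrays while WT2 and WT3 were lower, so the groups overlapped, and the mean change was 0.93 on the log2 scale (SE 0.36; limma, unadjusted p = 0.0335, adjusted p = 0.217). The WT arrays stood in the same order as for Hmox1. The change was 1.35 and called without WT1, 0.08 against WT1 alone and -0.19 with the covariate, so that its direction turned. Of its other probe sets, 2 gave 0.89 and 0.60 with the same overlap and 1419942_at gave -0.00 (log2). Txnrd1, the cytosolic thioredoxin reductase, was 0.27 higher on the log2 scale (SE 0.18, unadjusted p = 0.184) with overlapping groups on its bright probe set. On its 2 dim probe sets, with values between 3.24 and 6.30 (log2 RMA), the KO arrays were all higher, by 0.73 (limma, unadjusted p = 0.00141, adjusted p = 0.0705) and 0.62 (limma, unadjusted p = 0.00523, adjusted p = 0.104) on the log2 scale. With the covariate these were 0.32 (unadjusted p = 0.177) and 0.49 (unadjusted p = 0.150). Txn1, thioredoxin itself, lay between 12.93 and 13.41 on all 6 arrays (log2 RMA) with a change of -0.11 on the log2 scale (unadjusted p = 0.493). The peroxiredoxins Prdx2, Prdx3 and Prdx4 are thiol peroxidases of the cytosol, the mitochondrion and the endoplasmic reticulum. Their brightest probe sets changed by -0.12, -0.04 and 0.05 on the log2 scale, each with overlapping groups. The other probe set of Prdx2 gave -0.31 with overlap, and those of Prdx4 gave -0.18, -0.36 and -0.23 (log2). Of these only the dim 1431269_at of Prdx4, at -0.36, had groups apart (limma, unadjusted p = 0.0415). The same Prdx4 probe sets gave -0.44, -0.43 and -0.44 without WT1 and 0.48, -0.21 and 0.25 with the covariate (log2).

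**Figure D4:**
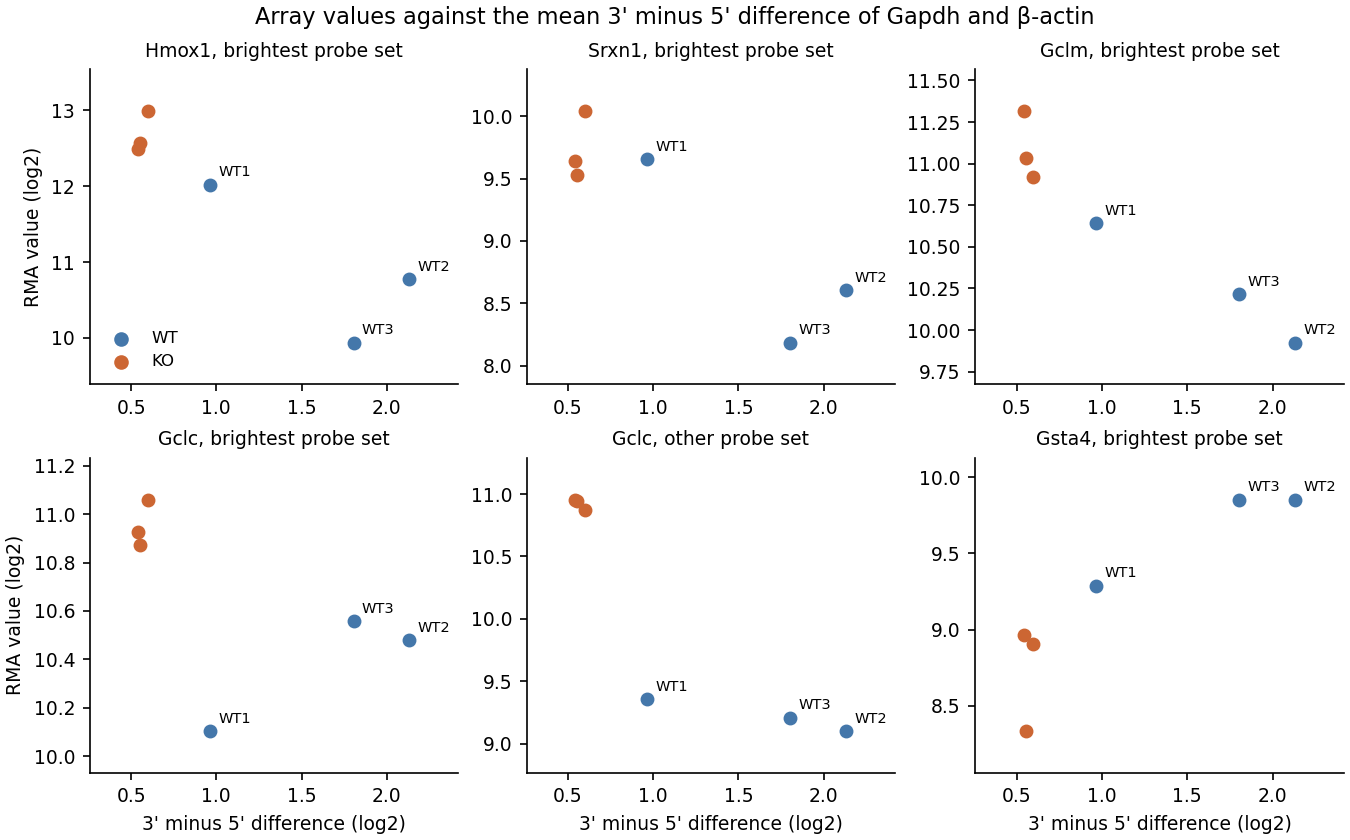
Level (y axis, log2 RMA value) of 5 genes, Gclc by both of its probe sets, against the mean 3' minus 5' difference of the Gapdh and β-actin control probe sets (x axis, log2) on each of the 6 arrays. For Hmox1, Srxn1, Gclm and Gsta4 the WT1 point, at 0.96 on the x axis, lies between the KO points and those of WT2 and WT3 or among the KO points; for the Gclc probe set 1424296_at it lies with the other WT points.

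Superoxide dismutases turn superoxide into hydrogen peroxide, which catalase, peroxiredoxins and glutathione peroxidases remove. Sod1, the copper and zinc enzyme of the cytosol, was at 12.29, 12.57 and 12.60 in WT1, WT2 and WT3 and at 11.96, 11.95 and 12.04 in KO5, KO6 and KO7 (log2 RMA). All KO arrays were lower, by -0.51 on the log2 scale on average (SE 0.12; limma, unadjusted p = 0.00395, adjusted p = 0.0947), and another bright probe set, at 11.94 to 12.38 (log2 RMA), also separated the groups, with -0.32 on the log2 scale (SE 0.11, unadjusted p = 0.0182). The dim probe set 1440222_at went the other way, with 5.67, 4.91 and 5.13 in WT and 6.27, 5.88 and 6.38 in KO (log2 RMA) and a change of 0.94 on the log2 scale (limma, unadjusted p = 0.00346, adjusted p = 0.0914). Which of these probe sets reads the transcript best was not examined. With the 3' minus 5' difference as a covariate, the change of the brightest was -0.22 (unadjusted p = 0.297), that of the other bright one -0.41 (unadjusted p = 0.0817) and that of 1440222_at 0.22 (unadjusted p = 0.442) on the log2 scale. Without WT1, 1440222_at was called, at 1.15. Sod2, the mitochondrial manganese enzyme, had a mean lower by -0.40 on the log2 scale (unadjusted p = 0.0640) on its brightest probe set. Another bright one was higher by 0.06, and its dimmer probe sets gave -0.31 and -0.10 (log2), all with overlap. The brightest gave -0.61 without WT1 (limma, unadjusted p = 0.00204) and 0.19 with the covariate (limma, unadjusted p = 0.431) on the log2 scale. Sod3, the extracellular enzyme, was the only gene of the 31 with a mean under 6 on its brightest probe set, where it read between 5.14 and 6.24 (log2 RMA) and changed by 0.44 on the log2 scale (unadjusted p = 0.102). Cat, catalase, gave -0.20 and 0.27 on the log2 scale on its 2 probe sets, both with overlap.

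Among the glutathione peroxidases, Gpx2, best known from the epithelium of the gut, was dim, at 5.95, 6.05 and 6.18 in WT1, WT2 and WT3 and 6.13, 6.61 and 6.87 in KO5, KO6 and KO7 (log2 RMA). KO5 lay within the WT range, and the change was 0.48 on the log2 scale (SE 0.19; limma, unadjusted p = 0.0406, adjusted p = 0.235). It was 0.59 against WT1 alone and 0.61 with the covariate (limma, unadjusted p = 0.147). Gpx3, the secreted form, had the largest SD of the 31 genes in both groups, 1.16 in WT and 0.76 in KO (log2, n = 3 each). Its level was 12.03 in WT1, 11.57 in WT2, 13.77 in WT3, 13.89 in KO5, 13.56 in KO6 and 12.43 in KO7 (log2 RMA), so that WT3 lay above KO6 and KO7, and KO7 was nearer to WT1 than to the other KO arrays. The mean change of 0.84 on the log2 scale had an SE of 0.60 (95% interval -0.56 to 2.24, unadjusted p = 0.203). Gpx1, the abundant cytosolic enzyme, and Gpx4, which reduces lipid peroxides in membranes and guards against ferroptosis, had changes of 0.10 (95% interval -0.15 to 0.35) and -0.04 (95% interval -0.43 to 0.35) on the log2 scale, within 2-fold in both directions. The other Gpx4 probe set was lower in every KO array, by -0.32 on the log2 scale (limma, unadjusted p = 0.0390, adjusted p = 0.230).

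The glutathione transferases join glutathione to electrophiles, and their 9 measured members had a median change of -0.18 on the log2 scale. At an unadjusted p under 0.05, 2 were lower and 0 higher, beside 13% and 6.17% of all genes. Gsta4, an alpha class enzyme that favours 4-hydroxynonenal, a product of lipid peroxidation, was at 9.29, 9.85 and 9.85 in WT1, WT2 and WT3 and at 8.33, 8.90 and 8.96 in KO5, KO6 and KO7 (log2 RMA). The groups did not overlap and the mean was lower by -0.93 on the log2 scale (SE 0.22, 1.91-fold; limma, unadjusted p = 0.00374, adjusted p = 0.0932), short of the 2-fold limit and so not called. It was called without WT1 (-1.12), KO6 (-1.02) or KO7 (-1.05), and was -0.56 against WT1 alone and -0.37 with the covariate (log2). Mgst1, a microsomal membrane-bound transferase, was at 12.78, 12.96 and 12.97 in WT and 12.56, 12.23 and 12.73 in KO (log2 RMA), lower by -0.39 on the log2 scale (SE 0.15; limma, unadjusted p = 0.0352, adjusted p = 0.222), with KO7 next to WT1. The change was -0.27 against WT1 alone and -0.23 with the covariate (limma, unadjusted p = 0.448). Its other probe set, 1415898_at, was dim and gave -0.03 on the log2 scale with overlapping groups. Gstm1, Gstm2, Gstp1 and the microsomal Mgst3 had means higher in KO by 0.30, 0.05, 0.08 and 0.45 on the log2 scale, and Gstm5, Gstt1 and Gsto1 had means lower by -0.34, -0.20 and -0.18. The groups overlapped for all 7, and their unadjusted p lay at 0.0896 (Gstm1) or above. The mu class genes are close in sequence, and a probe set whose name ends in _x_at, such as the brightest of Gstm1 and of Gsto1, can read more than 1 gene.

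Probe sets of a gene were also set beside each other. Of the 20 genes with more than 1 probe set, 7 had all of them higher in KO, 6 had all lower and 7 were mixed. Over all 63, 2 were called higher and 0 lower, against 1.69% and 0.3% of all probe sets (1.99% in either direction), and with an unadjusted p under 0.05 there were 14 higher and 7 lower, against 9.54% and 9.74%. With the 3' minus 5' difference as a covariate, 1 of the 31 genes was higher at an unadjusted p under 0.05 (Gclc) and 0 were lower. In the same, less precise fit these shares were 1.8% and 3.36% of all genes.

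Other genes of redox and glutathione metabolism were taken from 10 lists, 105 measured genes in all. Of these, Mafg and Oplah were called higher and 0 were called lower, and the limit of 0.05 on the unadjusted p was passed by 8 higher and 13 lower genes. With 6.17% of all genes higher and 13% lower at that limit, both of the latter counts are near the background. The median change of the 105 genes was -0.06 on the log2 scale. None of them had an adjusted p under 0.05 in limma, as for all but 0.137% of all genes. An adjusted p under 0.1 was found for 4 of them and for 703 of all 18193 genes. Values under other settings were taken only for Mafg and Oplah. Mafg encodes a small MAF protein, the partner with which NRF2 binds DNA. It was at 9.51 in WT1, 8.83 in WT2, 8.72 in WT3, 10.01 in KO5, 9.96 in KO6 and 10.17 in KO7 (log2 RMA). The groups did not overlap, WT1 was the WT array nearest to KO, and the rise was 1.03 on the log2 scale (SE 0.21; limma, unadjusted p = 0.00154, adjusted p = 0.0726). Without a single array it was no longer called in 3 of 6 cases (0.93 without WT2, 0.88 without WT3 and 0.97 without KO7), nor was it against WT1 alone (0.54) or with the covariate (0.32). Oplah, the oxoprolinase that returns the 5-oxoproline of glutathione breakdown to glutamate, was at 7.80, 6.44 and 7.76 in WT and 8.69, 8.35 and 8.84 in KO (log2 RMA), a rise of 1.30 on the log2 scale (SE 0.36; limma, unadjusted p = 0.00788, adjusted p = 0.121) in which WT2 stood low. It was 0.85 without WT2, 1.26 without KO5, 1.44 without KO6, 1.19 without KO7, 0.83 against WT1 alone and 0.27 with the covariate (log2), in each case without a call.

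By list, at an unadjusted p under 0.05, the 11 genes of glutathione supply and turnover held 2 genes higher and 1 lower. Besides Oplah these were Slc7a11, the cystine transporter that feeds glutathione synthesis (6.68, 6.66 and 6.13 in WT and 6.99, 7.19 and 7.02 in KO, log2 RMA; change 0.57, unadjusted p = 0.0106), and Hagh, the glyoxalase that releases glutathione from its lactoyl adduct (change -0.73, unadjusted p = 0.0240). The 11 NRF2 partners and regulators had a median of 0.25 on the log2 scale, with Mafg higher and Nfe2l3 lower (-0.76, unadjusted p = 0.0281). The 16 other NRF2 target and phase II enzymes had a median of -0.05 on the log2 scale, with Pir higher (0.90, unadjusted p = 0.0217) and Ephx1, microsomal epoxide hydrolase, lower (-0.33, unadjusted p = 0.0213). No gene of the 7 that supply NADPH or of the 13 other glutathione transferases had an unadjusted p under 0.05. Genes of selenoprotein synthesis and other selenoproteins had the lowest median of the 10 lists, -0.21 on the log2 scale, with 9 of 10 means lower in KO and 4 of them at an unadjusted p under 0.05. These were Pstk (-0.87) and Sephs2 (-0.78), which act in making the selenocysteine tRNA and the selenium donor, the selenoprotein Selenow (-0.47) and Secisbp2 (-0.43), which binds the selenocysteine insertion element of the mRNA (log2 changes, groups apart for all 4). Lower means were common in the whole series. Of all 18193 genes, 11127 had a lower mean in KO, 13% were lower at that p and 16.1% had KO arrays wholly below WT. The thioredoxin and glutaredoxin list held 5 of 16 genes lower and 0 higher, beside 13% and 6.17% of all genes. The lower ones were led by Txnrd3 (-0.69), Sesn3 (-0.62), Txnl1 (-0.45) and Sesn1 (-0.44) on the log2 scale. Of the 9 superoxide and peroxide producing enzymes, Cybb, the NADPH oxidase subunit of phagocytes, was lower (-0.76; limma, unadjusted p = 0.0247). Xdh, xanthine dehydrogenase of the milk fat globule, was higher (0.41, unadjusted p = 0.0265). Pxdn, a peroxidase that crosslinks collagen IV, was higher by 0.65 on the log2 scale (limma, unadjusted p = 0.000586). No gene of the 10 lists had an adjusted p under 0.05. Macrophage and dendritic cell markers had lower means (15 of 15) and endothelial markers higher means (12 of 12). Whether the levels of Cybb and Pxdn go with the share of these cells was not tested. The metallothioneins Mt2 and Mt1, which bind zinc and copper, were higher by 0.31 and 0.23 on the log2 scale with the groups apart and unadjusted p of 0.0161 and 0.0473.

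**Figure D5:**
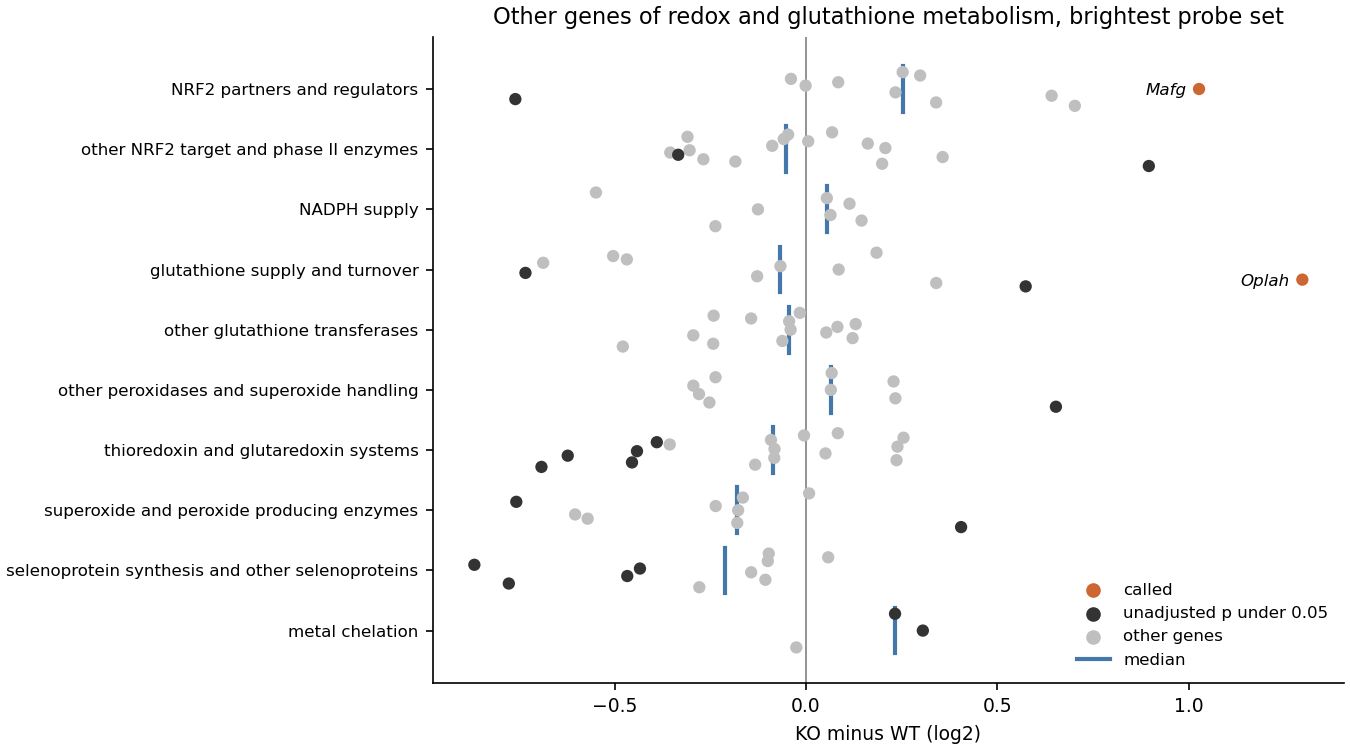
Change (x axis, KO minus WT, log2, brightest probe set) of the 105 measured genes of 10 further lists (y axis). Points are genes, orange for the called Mafg (1.03) and Oplah (1.30), black for the others with an unadjusted p under 0.05, and blue lines are the medians of the lists, the lowest of which is that of the selenoprotein list at -0.21.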

How the data were processed

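The authors deposited log2 values from RMA, whose version is not given in the sources used here, and these were not normalized again. RMA subtracts background, equalises the distributions of the arrays and summarises the probes of a probe set, so values compare arrays and not probe sets. The study's methods name simpleaffy for both quality control and normalization and do not name RMA. The difference between KO and WT was fitted with limma 3.58.1 under R 4.3.3 (lmFit, eBayes, no covariate) over 45037 probe sets, the 64 Affymetrix controls left out. The p-values were adjusted by the method of Benjamini and Hochberg. The fit was checked on simulated data. Genes were named through probe sets with 1 symbol. Every measured gene of the list was named; array values were given for genes that were called, had an unadjusted p under 0.05, or were apart by at least 0.5 (log2), and for Nfe2l2 and Keap1; values of other genes given for contrast were chosen after they were seen. Up to 4 genes of each further list were named, called ones first. The members and lists were chosen with earlier results of these data known. Summed marker levels are log2 of the sum of linear values. The covariate was the mean 3' minus 5' difference of the Gapdh and β-actin controls. Replicate numbers are 1 to 3 in both groups of the labels; deviations of same-numbered arrays correlated at -0.16, 0.16 and 0.10, so the numbers were not taken to pair mice. Alternatives were quantile normalization on top of RMA, centring on ribosomal protein genes, an intensity trend with a robust prior, array weights, a minimum mean of 6 (log2), the replicate block, that covariate, each array left out, averaged probe sets, a 1.5-fold limit and, added after seeing the data, WT1 as the only WT array. The precision is limited by 3 arrays per group. Python 3.11.15 and matplotlib 3.10.9 were used for motifs and figures.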

Additional observations from a re-analysis of the deposited data

How the results depend on the processing

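Of the 31 genes, 1 was called higher and 0 lower. When single arrays were left out, the calls ranged from 0 to 3 higher and 0 to 1 lower, the genes at an unadjusted p under 0.05 from 4 to 7 higher and 2 to 5 lower, and the median change from -0.02 to 0.12 on the log2 scale; 3 were called higher without WT1 (Hmox1 2.33, Srxn1 1.35 and Gclm 1.02), and Gsta4 was called lower without WT1 (-1.12), KO6 (-1.02) or KO7 (-1.05). Calls over all genes moved as well, from 178 to 388 without WT1 (1.29% higher and 0.846% lower) and to 101 without WT2 (0.286% and 0.269%). At an unadjusted p under 0.05, the share of all genes that were higher ran from 3.71% without WT2 to 8.79% without WT1. The share that were lower ran from 8.45% without WT2 to 16.2% without WT1. With the 3' minus 5' difference as a covariate, 0 genes were called higher, and 1 higher and 0 lower had an unadjusted p under 0.05 (1.8% and 3.36% of all genes). Against WT1 alone, an alternative chosen after seeing the data in which the lone WT array is taken to vary as the KO arrays do, 0 were called higher, and 2 higher and 0 lower had an unadjusted p under 0.05, where 0.401% of all genes were called higher and 3.28% and 6.66% passed that p. Averaging a gene's probe sets gave 2 called higher (0.478% of all genes) and, at an unadjusted p under 0.05, 1 lower (10.9% of all genes). Array weights gave 1 called lower (0.555% of all genes). A limit of 1.5-fold gave 2 called higher and 1 lower, and the share of all genes at that limit was not taken. With the replicate block the counts were 1 called higher and 0 called lower (0.572% and 0.533% of all genes). At an unadjusted p under 0.05 they were 7 higher and 3 lower (6.39% and 12.8% of all genes). Values of single genes under the alternatives were not taken for all 31 genes. They cover Nfe2l2, Keap1, the genes of the list with an unadjusted p under 0.05 in the main fit, and Mafg and Oplah. Other probe sets of those genes of the list were included. Of these 221 values, 215 kept their direction and 195 their side of the call. Most of these genes were picked for a difference on the same arrays, so these counts cannot test whether the changes hold. The causes of the shifts between settings were not tested. With 3 arrays per group, a gene such as Gpx3, whose 95% interval ran from -0.56 to 2.24 on the log2 scale, cannot be placed on either side of a 2-fold change.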
